A study of Mus musculus with 8 samples.

Results

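The miR-132/miR-212 cluster is a pair of neighbouring miRNA genes, Mir212 and Mir132, whose hairpins each yield a 5p and a 3p mature miRNA. All 4 mature forms had an assay among the 688 miRNAs measured here by RT-qPCR in mouse gastrocnemius muscle. The cluster was selected on Cp values measured in these pools, with miR-132-3p as the member known from earlier results, and its members were then taken by name (every assay beginning with miR-132 or miR-212). Their values are therefore given as a description without a test. The muscles came from a model of neurogenic heterotopic ossification (NHO), the formation of bone inside muscle after a lesion of the central nervous system. Female, young adult C57Bl/6 mice received a spinal cord transection at a low thoracic level (SCI) or a control operation (SHAM), and cardiotoxin (CDTX), a snake venom toxin that destroys muscle fibres, or its vehicle phosphate-buffered saline (PBS) into the gastrocnemius. Muscles were collected 2 days (D2) or 4 days (D4) later, and the RNA of 3 muscles was pooled for each of the 8 conditions, the 4 combinations of injection and surgery (PBS + SHAM, CDTX + SHAM, PBS + SCI, CDTX + SCI) on both days. No allele, transgene or Cre was involved, and the PBS muscles of SCI mice share the spinal lesion but not the muscle lesion. Each mouse was given CDTX on the left side and PBS on the right, according to the methods. Pools that differ in injection alone can thus stem from the same animals, which the labels do not settle.

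miR-132 and miR-212 are processed from 1 primary transcript that is driven by the transcription factor CREB. They are best known from neurons, where electrical activity and neurotrophins raise them and where they act on dendrite growth. The cluster is also induced in innate immune cells by inflammatory stimuli, and miR-132 acts in endothelial cells during vessel growth, where it targets the Ras inhibitor p120RasGAP. A miRNA finds its targets mainly through its seed, the bases near its 5′ end, so that miRNAs with the same seed share many predicted targets.

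The mature sequences show why both 3p arms are described together. RefSeq (GRCm38.p6) places both genes on the plus strand of chromosome 11, and the seed (bases 2 to 8) is in capitals:
miR-132-3p: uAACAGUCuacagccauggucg
miR-212-3p: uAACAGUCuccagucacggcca
miR-132-5p: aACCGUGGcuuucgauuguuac
miR-212-5p: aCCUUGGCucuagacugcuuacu

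The 3p arms carried the same seed, AACAGUC, and each 5p arm carried its own. Among 1738 mature mouse miRNAs of RefSeq, 2 had this seed, namely these 3p arms. Over their 22 bases the 3p arms were identical at 17 positions and differed at 5. Counted from the 5′ end with miR-132-3p as the first sequence, the differences to miR-212-3p were A10C, C14U, U17C, U20C and G22A, all outside the seed. Whether the assay of either 3p arm also reads the other was not tested.

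The hairpins are shown with both mature arms in capitals, because the position of the arms shows that all 4 members come from 2 adjacent precursors:
Mir212: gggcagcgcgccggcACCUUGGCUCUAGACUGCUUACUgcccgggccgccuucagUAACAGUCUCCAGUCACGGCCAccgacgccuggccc
Mir132: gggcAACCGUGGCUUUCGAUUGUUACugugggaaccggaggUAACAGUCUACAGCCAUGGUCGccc

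The Mir212 hairpin lies at chr11:75173388-75173478 and the Mir132 hairpin at chr11:75173682-75173747, with 203 bases between them. The mature arms lie at chr11:75173403-75173425 (miR-212-5p), chr11:75173443-75173464 (miR-212-3p), chr11:75173686-75173707 (miR-132-5p) and chr11:75173723-75173744 (miR-132-3p). The panel's listed targets were identical to RefSeq for miR-132-3p, miR-212-3p and miR-212-5p. For miR-132-5p the listed target started 1 base further along the hairpin (chr11:75173687-75173708), which moves its seed by 1 base:
miR-132-5p, panel target: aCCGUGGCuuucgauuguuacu

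Levels were measured as the Cp, the PCR cycle at which an assay's signal is quantified, so that 1 cycle less stands for about a doubling of the miRNA. No Cp above 36 was recorded, so that a value of 36 was taken to mean not detected, and 32 was the threshold of the study. Per pool, 388 to 436 of the 755 assays were at 36, and 141 to 165 miRNAs had a Cp of at most 32, among them 116 that did so throughout the 8 pools. Each condition had 1 pool, so no value has an error between mice and no comparison of 2 pools has a p-value. A bulk pool also cannot tell fewer cells of a type from less RNA per cell.

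miR-132-3p was the member of lowest Cp in every pool, and the only one to reach the threshold. At D2 its Cp was 31.41 in PBS + SHAM and 31.54 in PBS + SCI, against 30.69 (CDTX + SHAM) and 30.92 with both lesions (CDTX + SCI). At D4 it was 31.85 in PBS + SHAM and 32.89 in PBS + SCI, against 32.02 (CDTX + SHAM) and 31.06 with both lesions (CDTX + SCI). It was thus within the threshold in 6 of 8 pools, with PBS + SCI and CDTX + SHAM at D4 beyond it, and it ranked between 107 and 170 by Cp among the 291 to 337 miRNAs detected per pool. By Cp alone the CDTX and PBS pools overlapped, since CDTX + SHAM at D4 lay beyond 3 of the 4 PBS pools.

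miR-212-3p, which has the same seed, was beyond the threshold in all 8 pools. In the CDTX pools its Cp was 34.09 (SHAM, D2), 33.75 (SCI, D2), 34.45 (SHAM, D4) and 32.95 (SCI, D4). Among the PBS pools it gave a Cp of 35.46 in PBS + SHAM at D2 and was not detected in the other 3. All 4 CDTX pools were therefore lower in Cp, that is higher in miR-212-3p, than all 4 PBS pools. Among the 201 miRNAs detected somewhere but beyond 32 in all 8 pools, 20 (9.95%) had this pattern and 18 (8.96%) the opposite one. The 201 include miRNAs with undetected pools under both injections, which can show neither pattern. These shares are therefore lower than among miRNAs able to show it.

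The 5p arms were detected in fewer pools than the 3p arms. miR-132-5p had a Cp of 35.16 in PBS + SHAM at D2 and of 33.85, 34.9 and 34.85 in CDTX + SHAM at D2, CDTX + SHAM at D4 and CDTX + SCI at D4. It was not detected in the other 4 pools, CDTX + SCI at D2 among them, so its CDTX and PBS pools overlapped. miR-212-5p was detected in 1 of 8 pools, at a Cp of 35.91 in CDTX + SCI at D4, and was at 36 in the other 7. Cp values this late come from few template copies.

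**Figure D1:**
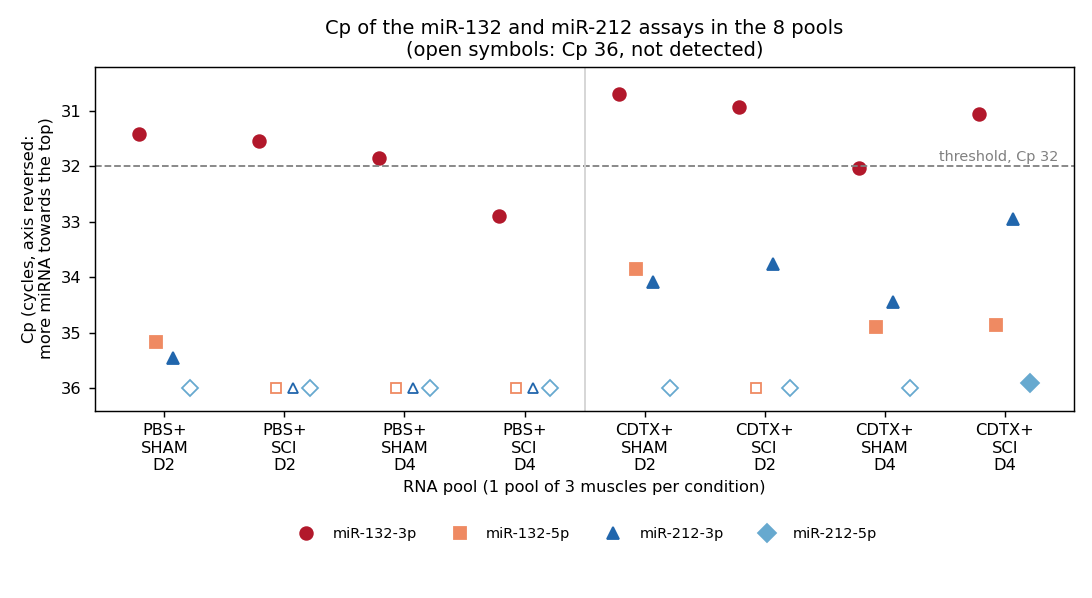
Cp of the 4 members (y axis, in cycles, reversed so that more miRNA is towards the top) in each of the 8 pools (x axis, PBS on the left and CDTX on the right), with open symbols for assays not detected and a dashed line at the threshold of 32. miR-132-3p lies between 30.69 and 32.89, and miR-212-3p between 32.95 and 34.45 in the CDTX pools against 35.46 or not detected in the PBS pools.

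To compare pools, each Cp was subtracted from the mean Cp of 3 reference miRNAs (miR-125b-5p, miR-24-3p and miR-23b-3p), which gives a log2 relative expression. The mean reference Cp ranged from 24.68 to 25.61. For miR-132-3p the log2 relative expression was -5.15 in CDTX + SHAM D2, -5.41 in CDTX + SCI D2, -5.84 in CDTX + SCI D4 and -6.41 in CDTX + SHAM D4. In the PBS pools it was -6.50 in PBS + SHAM D4, -6.68 in PBS + SCI D2, -6.73 in PBS + SHAM D2 and -7.72 in PBS + SCI D4.

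On this scale the 4 CDTX pools lay above the 4 PBS pools, with a gap of 0.09 between the nearest of them. The steps in that order were read against an assay error, since no pool was repeated. Where 2 assays measured the same miRNA with all Cp between 30 and 33, their log2 ratios differed by 0.56 (root mean square, 11 miRNAs, 60 ratios), and by up to 1.80. This assay error is a difference between 2 assays and so holds the error of both. It covers the assay and not the pool or the mouse. The 2 assays were matched by name without the species prefix, so their target sequences can differ. One step was larger than 0.56 by more than rounding, the 0.99 between PBS + SHAM D2 and PBS + SCI D4, while that between CDTX + SCI D4 and CDTX + SHAM D4 was 0.56 and the others ran from 0.05 to 0.44. Neighbouring pools in the order were thus mostly not further apart than 2 assays of 1 miRNA differ, although the error of 1 assay is smaller. Of the 178 miRNAs that never exceeded a Cp of 34, 58 (32.6%) had all CDTX pools above all PBS pools on this scale, and 48 (27%) had them all below. Of the 116 that never exceeded 32 the shares were 31% and 34.5%.

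**Figure D2:**
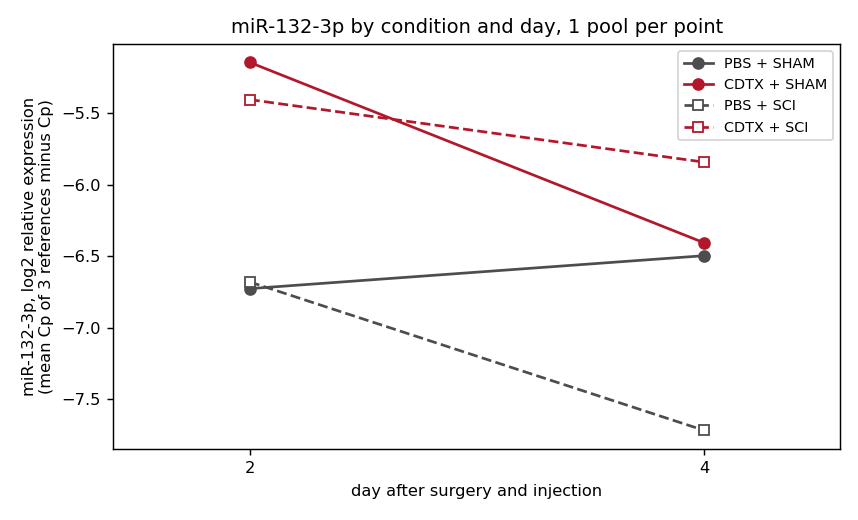
log2 relative expression of miR-132-3p (y axis, mean Cp of the 3 references minus its Cp) at 2 and 4 days (x axis), with 1 pool per point, lines joining pools of the same surgery and injection, and no error bars because each condition has 1 pool. The CDTX pools lie at -5.15 and -5.41 at D2, and CDTX + SHAM at D4 (-6.41) lies next to PBS + SHAM at D4 (-6.50).

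The first comparison asked how the cluster differed between CDTX and PBS muscles of the same surgery and day. miR-132-3p was higher with CDTX by 2.99-fold in SHAM mice and 2.42-fold in SCI mice at D2, and by 3.66-fold in SCI mice at D4. In SHAM mice at D4 the pools were nearly level. On the log2 scale these differences were 1.58, 1.27, 1.87 and 0.09, so it passed 2-fold in 3 of 4 pairs. Among the miRNAs kept (Cp no later than 32 in either pool), the share at least 2-fold higher was 22.7% (SHAM, D2), 17.2% (SCI, D2), 21.8% (SCI, D4) and 28% (SHAM, D4). The share at least 2-fold lower was 16.7%, 18.7%, 24.1% and 24.8% in the same order.

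By size, miR-132-3p ranked 17 of 132 in SHAM at D2, 16 of 134 in SCI at D2, 12 of 134 in SCI at D4 and 62 of 126 in SHAM at D4. Both D4 pairs include a Cp beyond the threshold. The mean log2 ratio over the 4 pairs was 1.20 ± 0.78 (SD, n = 4 pairs that differ in surgery and day), or 2.30-fold. Of the 116 other miRNAs within the threshold in all pools, 18 had a higher mean and 98 a lower one, with a median of -0.03. With both pairs that stayed within the threshold alone, the mean was 1.43.

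The mean reference Cp was lower in the PBS pool of each pair, which raised every ratio of CDTX over PBS. At D2 it was 24.68 against 25.54 with CDTX (SHAM) and 24.86 against 25.51 (SCI). At D4 it was 25.35 against 25.61 (SHAM) and 25.17 against 25.22 (SCI). The choice of references also moved these values. Without any reference, the Cp of miR-132-3p was lower with CDTX by 0.72 and 0.62 cycles at D2 (SHAM and SCI) and by 1.83 cycles in SCI at D4, and it was higher with CDTX by 0.17 cycles in SHAM at D4. The log2 ratio of SHAM at D4 ranged from -0.28 (miR-24-3p alone) to 0.34 over the other normalizations, so its direction was not settled. The other 3 pairs kept theirs, at 1.27 to 1.90 (SHAM, D2), 0.93 to 1.69 (SCI, D2) and 1.47 to 2.13 (SCI, D4).

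miR-212-3p differed more than miR-132-3p in the same pairs, on late cycles. It was higher with CDTX by 4.69-fold in SHAM mice at D2 (log2 2.23). In the other pairs its PBS pool was not detected, and a Cp of 36 there gives a lower bound. CDTX was at least 7.48-fold higher in SCI at D2, at least 3.51-fold higher in SHAM at D4 and at least 8.53-fold higher in SCI at D4. These bounds were positive under all 5 other normalizations, the smallest of them being 1.44 on the log2 scale (SHAM, D4). For assays with a highest Cp between 32 and 36, log2 ratios of 2 assays of 1 miRNA differed by 0.89 (root mean square, 18 miRNAs, 145 ratios) and by up to 3.57, so a single ratio of this kind is imprecise.

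miR-132-5p was 4.50-fold higher with CDTX in SHAM at D2, at least 2.57-fold higher in SHAM at D4 and at least 2.29-fold higher in SCI at D4. In SCI at D2 it was not detected in either pool. For miR-212-5p the only value was a bound of 0.13 on the log2 scale in SCI at D4.

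**Figure D3:**
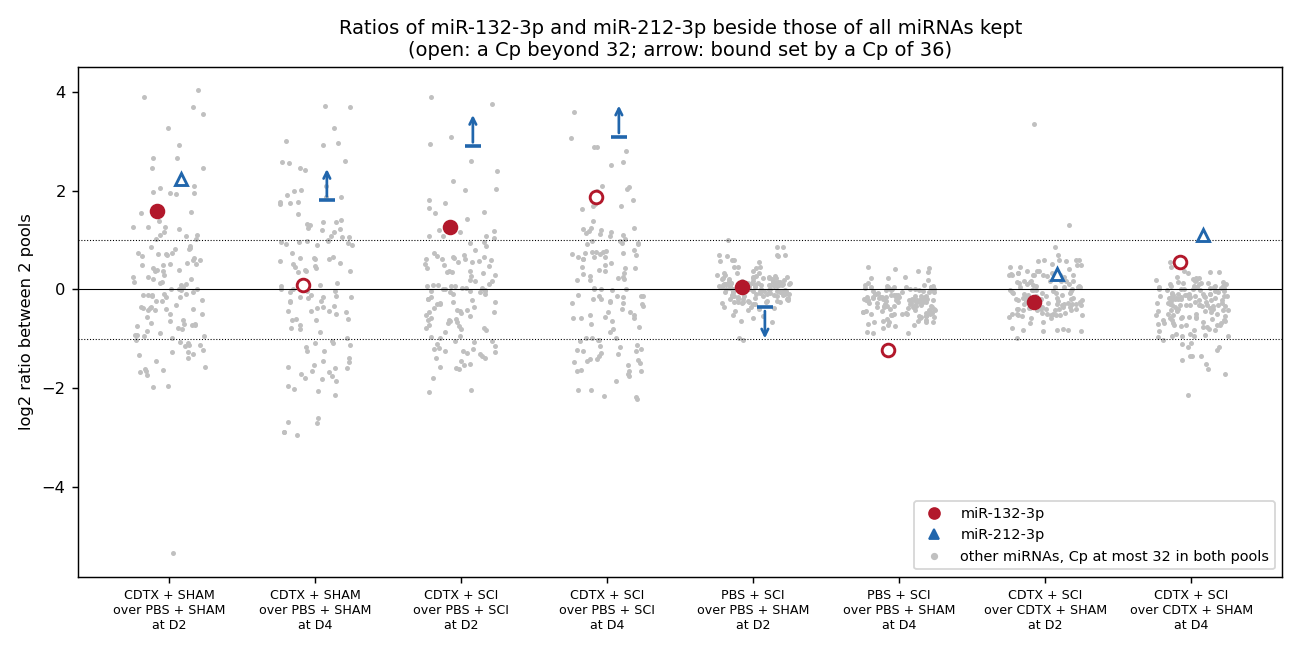
log2 ratios (y axis) of miR-132-3p (circles) and miR-212-3p (triangles, or arrows from a bound where a pool was not detected) in 8 comparisons of 2 pools (x axis), beside all other miRNAs kept in that comparison (grey). Open symbols have a Cp beyond 32, dotted lines mark 2-fold, and miR-132-3p at D4 lies at -1.22 for PBS + SCI over PBS + SHAM and at 0.56 for CDTX + SCI over CDTX + SHAM.

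The second comparison asked how the cluster differed between SCI and SHAM in muscles of the same injection and day. At D2 miR-132-3p differed little, with a log2 ratio of SCI over SHAM of 0.05 in PBS muscles and -0.26 in CDTX muscles. At D4 it was 2.33-fold lower with SCI in PBS muscles (log2 -1.22) and 1.48-fold higher with SCI in CDTX muscles (log2 0.56). It was thus at least 2-fold lower in 1 of the 4 pairs, a size that 0 of the 137 miRNAs kept in that pair reached (0% lower, 0% higher). In the other pairs few miRNAs passed 2-fold with SCI. They were 0.658% higher and 0.658% lower in PBS at D2, 1.46% higher and 0% lower in CDTX at D2, and 0% higher and 8.92% lower in CDTX at D4.

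Both D4 values lay at an end of the range of the miRNAs kept. In PBS muscles miR-132-3p was the lowest of 138, and in CDTX muscles the highest of 158. These miRNAs mostly have lower Cp values than miR-132-3p, and miRNAs of like Cp reached further. Among 90 miRNAs with a mean Cp between 30 and 33, the log2 ratios of PBS + SCI over PBS + SHAM at D4 had an SD of 0.47 and ran from -1.48 to 1.06, with 3 lower than miR-132-3p. For CDTX + SCI over CDTX + SHAM at D4 the SD was 0.59 and again 3 of the 90 were higher. The mean over the 4 pairs was -0.22 ± 0.75 (SD), close to the median of the other miRNAs (-0.10), and without the PBS pair of D4 it was 0.12.

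miR-212-3p had its lowest Cp in CDTX + SCI at D4. It was 2.15-fold higher there than in CDTX + SHAM (log2 1.10, above all 157 miRNAs kept, although miRNAs of like Cp to miR-132-3p reached 1.37), with a range of 1.05 to 1.39 over the other normalizations. At D2 the same ratio was 0.31 on the log2 scale. In PBS muscles no ratio could be formed at D4, because neither pool was detected. miR-132-5p differed by -0.35 between CDTX + SCI and CDTX + SHAM at D4, and at D2 it was at least 4.53-fold lower with SCI, being detected in CDTX + SHAM alone.

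The difference between the CDTX response of SCI mice and that of SHAM mice combines 4 pools of a day. For miR-132-3p it was -0.31 on the log2 scale at D2 and 1.78 at D4. At D2, 94 of the 127 miRNAs kept in all 4 pools of that day, miR-132-3p included, had a higher difference, and 1.57% of all were at least 2-fold higher and 4.72% at least 2-fold lower. At D4, 0 of 123 were as high, the highest being miR-1-3p at 0.86, and 0% were at least 2-fold higher against 1.63% at least 2-fold lower. With a limit of 34 on the Cp, 0 of 186 were as high, the highest being miR-144-3p at 1.39. The difference at D4 was 1.68 to 1.85 over the other normalizations. It rests on 2 pools beyond the threshold, CDTX + SHAM (32.02) and PBS + SCI (32.89), and was not tested.

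**Figure D4:**
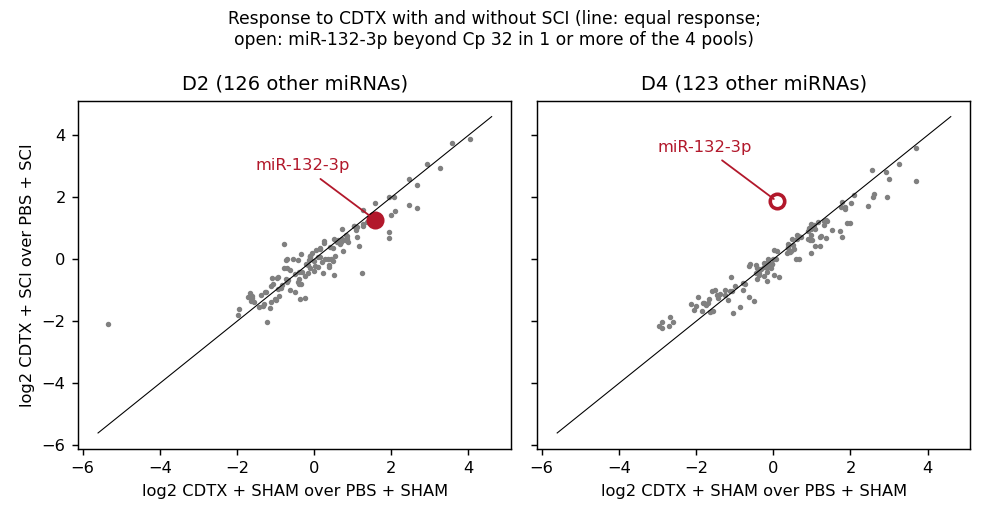
log2 ratio of CDTX over PBS in SCI mice (y axis) against that in SHAM mice (x axis) at D2 (left) and D4 (right), with 1 grey point per miRNA that stayed within a Cp of 32 on that day and a line of equal response. miR-132-3p lies near the line at D2 (1.58 and 1.27) and above it at D4 (0.09 and 1.87, drawn open because 2 of its pools are beyond 32).

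From D2 to D4, the third comparison, miR-132-3p was at least 2-fold lower in CDTX + SHAM and in PBS + SCI, whose D4 pools are those beyond the threshold. In CDTX + SHAM it was 2.39-fold lower at D4 (log2 -1.26, rank 136 of 138, with 3.65% of miRNAs at least 2-fold lower and 18.2% higher). In PBS + SCI it was 2.05-fold lower (log2 -1.04, rank 146 of 147, with 0.685% at least 2-fold lower and 0% higher). The log2 ratio was -0.44 in CDTX + SCI (5.93% of miRNAs at least 2-fold higher, 8.89% lower) and 0.23 in PBS + SHAM (2.14% higher, 0% lower). Its mean over the 4 pairs was -0.63 ± 0.67 (SD), and 113 of the 116 other miRNAs had a higher mean. With both pairs that stayed within the threshold alone the mean was -0.10. That filter acts on the Cp of miR-132-3p itself and leaves out the pairs of largest fall, so this value is no check of the fall.

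miR-212-3p followed another course in the CDTX muscles. Its log2 ratio of D4 over D2 was -0.29 in CDTX + SHAM, which ranged from -0.56 to 0.06 over the other normalizations, and 0.50 in CDTX + SCI. Over all 3 factors miR-132-3p differed at least 2-fold in 6 of 12 comparisons of 2 pools. Each of the 4 such values at D4 takes in PBS + SCI D4 or CDTX + SHAM D4, so they are not separate observations.

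The difference in Cp between members within a pool needs no reference. miR-212-3p came 3.40 cycles after miR-132-3p in CDTX + SHAM at D2, 2.83 in CDTX + SCI at D2, 2.43 in CDTX + SHAM at D4 and 1.89 in CDTX + SCI at D4. In the PBS pools the distance was 4.05 cycles in PBS + SHAM at D2, and at least 4.46, 4.15 and 3.11 cycles where miR-212-3p was not detected (PBS + SCI D2, PBS + SHAM D4 and PBS + SCI D4). The 4 CDTX distances were at most 3.40 cycles, and PBS + SCI at D4, whose bound was 3.11, may overlap them. Because assays differ in efficiency, these distances compare pools and not the amounts of both miRNAs. miR-132-5p came 3.16, 2.88 and 3.79 cycles after miR-132-3p in the CDTX pools that had it (SHAM D2, SHAM D4 and SCI D4), and at least 5.08 cycles after it in CDTX + SCI at D2.

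By Pearson correlation of log2 relative expression over the 8 pools, the profiles most like that of miR-132-3p among 116 miRNAs were miR-16-5p (r = 0.88), miR-19b-3p (0.83), miR-223-3p (0.83), miR-23a-3p (0.81) and miR-27a-3p (0.79). The pools share the references and fall into CDTX and PBS, so these are descriptions over 8 points. By Spearman correlation 2 of these 5, miR-16-5p and miR-27a-3p, were among the first 5. For miR-23a-3p r was 0.27 with miR-24-3p alone, and over the other normalizations its rank was as low as 43. miR-223-3p is known from neutrophils and other myeloid cells, and miR-19b-3p belongs to a cluster linked to proliferation. Within the 4 CDTX pools r was 0.89, 0.90, 0.95, 0.78 and 0.25 in the same order, and within the 4 PBS pools 0.50, -0.82, -0.66, 0.59 and 0.68. For miR-19b-3p and miR-223-3p r was thus high over the 4 CDTX pools and of the opposite sign over the 4 PBS pools, each on 4 points. Within the CDTX pools 1 of the 5, miR-223-3p, was still among the first 5, and within the PBS pools 0 were.

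The size of the differences was unlike across these 5. At D2 in SHAM mice the log2 ratio of CDTX over PBS was 4.04 for miR-223-3p, 1.27 for miR-19b-3p, 0.63 for miR-16-5p, 0.59 for miR-27a-3p and 0.29 for miR-23a-3p, against 1.58 for miR-132-3p. None of them differed as much as miR-132-3p between the PBS pools of D4. Their log2 ratios of PBS + SCI over PBS + SHAM at D4 were -0.10 (miR-16-5p), 0.05 (miR-19b-3p), 0.38 (miR-223-3p), -0.04 (miR-23a-3p) and -0.13 (miR-27a-3p).

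**Figure D5:**
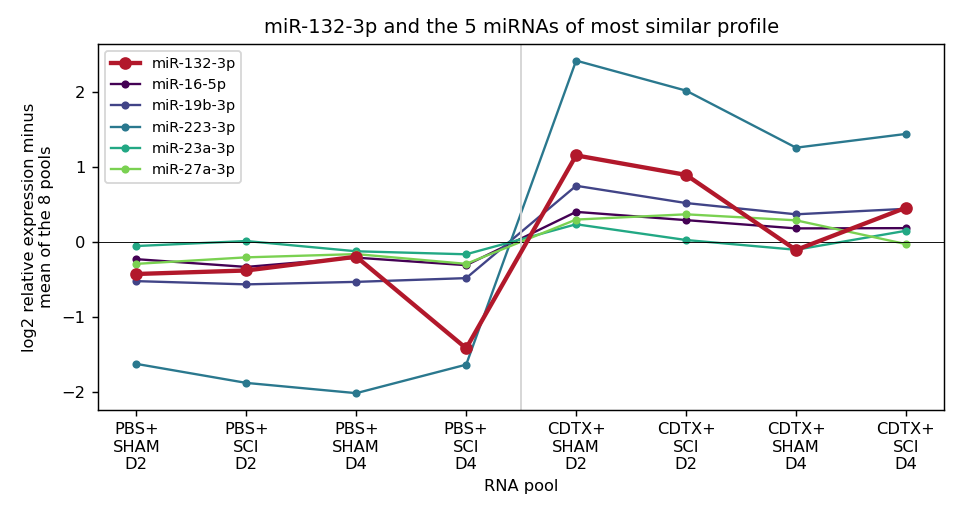
log2 relative expression minus the mean of the 8 pools (y axis) for miR-132-3p (thick red line) and the 5 miRNAs of most similar profile, in each pool (x axis, PBS on the left and CDTX on the right). The lines join pools for reading only, and the log2 ratio of PBS + SCI over PBS + SHAM at D4 is -1.22 for miR-132-3p and between -0.13 and 0.38 for the 5.

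The cluster is known from neurons, leukocytes and vessels, and lists for these and for muscle were read beside it. Of 12 neuronal miRNAs, 0 or 1 were kept per pair of CDTX and PBS pools, too few to read a share from. Among those kept, 0 were at least 2-fold different. Over all miRNAs kept, 17.2% to 28% were at least 2-fold higher and 16.7% to 24.8% lower. The summed relative expression of the 12 was 0.0328 to 0.0390 in the PBS pools and 0.0375 to 0.0517 in the CDTX pools. The neuronal miRNAs miR-9-3p, miR-129-5p, miR-129-2-3p and miR-153-3p were not detected in any pool, and miR-137 was detected in 1, at a Cp of 35.51. miR-124-3p, the most typical of neurons, had a Cp of 32.81 to 35.79. miR-128-3p (30.52 to 33.28) and miR-138-5p (31.63 to 32.7) reached the threshold in some pools.

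The neuronal members had no common direction between injections. miR-128-3p had log2 ratios of CDTX over PBS of -1.90 (SHAM, D2), -0.85 (SCI, D2), -0.16 (SHAM, D4) and -0.30 (SCI, D4). Those of miR-124-3p were 1.17, -0.56, -1.19 and -1.71 in the same order, and those of miR-9-5p 1.43, -0.42, -0.25 and -0.81. For miR-138-5p they were 1.36, 0.37, 0.38 and 0.69. Those of miR-218-5p (Cp 32.9 to 34.6) were 0.54, -0.21, 0.47 and 0.69, and those of miR-219a-5p (33.07 to 34.12) were 0.40, 0.60, 0.60 and -0.06. Most of these ratios include a Cp beyond the threshold.

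miR-134-5p, which acts in dendrites, was higher with CDTX in all 4 pairs. It had a Cp of 33.94, 35.67, 34.43 and 34.63 in PBS + SHAM D2, PBS + SCI D2, PBS + SHAM D4 and PBS + SCI D4. In the CDTX pools its Cp was 32.64 (SHAM, D2), 33.07 (SCI, D2), 31.45 (SHAM, D4) and 31.74 (SCI, D4). The groups did not overlap by Cp. Of the 178 miRNAs that never exceeded a Cp of 34, 32.6% had all CDTX pools above all PBS pools in relative expression and 27% below. miR-134-5p exceeded that limit and is not among them, and no share by Cp was formed over a set that holds it. Its log2 ratios were 2.16 (SHAM, D2), 3.25 (SCI, D2), 3.24 (SHAM, D4) and 2.93 (SCI, D4), each with a Cp beyond the threshold in at least 1 pool.

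Of the 4 inflammation-induced miRNAs with an assay, 2 of the 3 kept were at least 2-fold higher with CDTX in SHAM at D2, in SCI at D2 and in SCI at D4, and 1 of the 1 kept in SHAM at D4. Over all miRNAs kept the shares were 22.7%, 17.2%, 21.8% and 28%. The medians of the list were 2.66, 1.65, 1.38 and 2.93 on the log2 scale, beside -0.03 to 0.02 for all miRNAs kept. miR-21-5p, which is induced in many injured tissues, was higher with CDTX by 2.67 (SHAM, D2), 2.39 (SCI, D2), 2.93 (SHAM, D4) and 2.80 (SCI, D4). miR-146b-5p, which restrains Toll-like receptor signalling, was higher by 2.66, 1.65, 1.94 (1 Cp beyond the threshold) and 1.38 in the same order. miR-146a-5p, of the same family, had a Cp of 30.47 to 32.05 and differed less than miR-146b-5p in each pair. It was higher with CDTX by 0.81 (SHAM, D2), 0.62 (SCI, D2), 1.84 (SHAM, D4, 1 Cp beyond the threshold) and 0.94 (SCI, D4). miR-155-5p, a classical miRNA of activated macrophages, was beyond the threshold throughout. Its Cp was 34.11 to 35.74 with PBS, and 34.45 (SHAM) and 34.71 (SCI) with CDTX at D2. After subtraction from the references, miR-155-5p was higher with CDTX by 0.53 in SHAM mice at D2 and nearly level in SCI mice (0.05). At D4 it was not detected in either CDTX muscle pool, unlike the other members with an assay.

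The leukocyte list was higher in the CDTX pools, as miR-132-3p and miR-212-3p were on the relative scale. Its summed relative expression over 5 of 5 members was 0.417 to 0.453 in the PBS pools and 1.85 to 3.21 in the CDTX pools, and no member was undetected in any pool. Among those kept, 4 of 5 were at least 2-fold higher with CDTX in SHAM at D2, 2 of 4 in SCI at D2, and 3 of 4 at D4 in both surgeries, where the other 1 (miR-150-5p) was at least 2-fold lower. Over all miRNAs kept, 22.7% (SHAM, D2), 17.2% (SCI, D2), 28% (SHAM, D4) and 21.8% (SCI, D4) were higher, and 24.8% and 24.1% were lower at D4. miR-142-3p, a marker of blood-derived cells, differed by log2 3.89 (SHAM, D2), 4.12 (SCI, D2), 4.27 (SHAM, D4) and 3.59 (SCI, D4), the last 3 with a PBS pool beyond the threshold. miR-142-5p had a Cp of 25.2 to 29.22 and miR-342-3p of 28.94 to 30.58. miR-150-5p, a lymphocyte miRNA, had a Cp of 26.85 to 29.29. Its log2 ratios of CDTX over PBS were 0.01 (SHAM, D2), -0.22 (SCI, D2), -1.70 (SHAM, D4) and -1.40 (SCI, D4), so it was nearly level at D2 and lower at D4. Over the inflammation-induced list the sum was 0.483 to 0.627 in PBS and 2.47 to 4.70 in CDTX pools. That sum is mostly miR-21-5p (Cp 23.19 to 26.07), because no other member had a Cp below 29.65. The part of these lists in the miR-132-3p and miR-212-3p differences was not tested. Between CDTX + SCI and CDTX + SHAM at D4, the leukocyte median was -0.01 with 0 of 5 at least 2-fold different. Over the 157 miRNAs kept the median was -0.29, with 0% at least 2-fold higher and 8.92% lower.

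The muscle list was lower in the CDTX pools, and the vessel list overlapped between injections as a sum. The striated muscle miRNAs (5 of 6 with an assay under the name used) summed to 66.4 to 102 in the PBS pools and 16.0 to 24.4 in the CDTX pools, so the labelled tissue was plain in all 8. miR-1-3p (Cp 20.08 to 26.28), miR-133a-3p (19.74 to 22.95), miR-133b (19.95 to 22.77) and miR-206 (23.37 to 26.47) were all within the threshold. With CDTX all 4 were at least 2-fold lower at D2 in both surgeries, and 3 of 4 at D4, while miR-206 was higher than in PBS. The shares lower over all miRNAs kept were 16.7% (SHAM, D2), 18.7% (SCI, D2), 24.8% (SHAM, D4) and 24.1% (SCI, D4). The remaining member, miR-208b-3p, of slow fibres and heart, was beyond 32 in all pools. Both endothelial members, miR-126-3p (24.03 to 26.55) and miR-126-5p (30.64 to 33.08), were detected in all 8 pools and summed to 1.25 to 1.59 in PBS and 0.528 to 1.48 in CDTX pools. miR-126-3p had log2 ratios of CDTX over PBS of -0.41 (SHAM, D2), -0.04 (SCI, D2), -1.47 (SHAM, D4) and -1.15 (SCI, D4), and was at least 2-fold lower in both D4 pairs. Their part in the miR-132-3p differences was not tested either.

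The nearest other gene with an assay, Mir22, shares the chromosome but not the pattern. It was 1 of 3 other miRNA genes within 1 Mb of the cluster that had an assay. miR-22-3p had a Cp of 24.43, 24.61, 24.56 and 25.07 in PBS + SHAM D2, PBS + SCI D2, PBS + SHAM D4 and PBS + SCI D4, and of 26.24, 25.88, 26.61 and 26.53 in the CDTX pools in the same order. It was lower with CDTX in all 4 pairs, by log2 -0.95 (SHAM, D2), -0.62 (SCI, D2), -1.79 (SHAM, D4) and -1.42 (SCI, D4). miR-22-5p had a Cp of 30.88 to 33.55.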

How the data were processed

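RNA pools of mouse gastrocnemius (8 pools, 3 muscles each) had been reverse transcribed and measured by the authors by SYBR Green qPCR with LNA primers on a mouse and rat miRNome panel. The authors deposited Cp values (second derivative maximum, LightCycler software) before normalization. Another deposited table holds, per pool, the ratio of each miRNA to references. Tested on the values, this ratio follows the mean of 4 references (miR-125b-5p, miR-24-3p, miR-23a-3p and miR-16-5p) to within 0.00668 on the log2 scale where the ratio is above 0.01, whereas the methods name 3 references. The remaining table holds the authors' own fold changes against 1 pool and was not used. All deposited columns of pools map to a sample.

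Log2 relative expression was the mean Cp of the methods' references (miR-125b-5p, miR-24-3p and miR-23b-3p) minus the Cp, and log2 ratios are differences of it. A comparison kept the miRNAs whose Cp did not exceed 32 in either pool. Members are shown at any Cp, and where 1 pool was at 36 the ratio is a bound. Where 2 assays shared a name apart from the species prefix, the mouse assay was used, otherwise that of lower mean Cp. The 64 second assays served for the assay error. Differences of 2-fold or more were called, with no test. The miRNAs named are the 4 members, the 5 of highest Pearson r, the list members with a Cp of at most 32 in any pool and the references. Other miRNAs (those not detected, miR-155-5p, miR-124-3p, miR-9-5p, miR-218-5p, miR-219a-5p, miR-208b-3p, miR-144-3p) were named after their values were seen. The members and lists were chosen with earlier results of these data known.

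Precision is limited by the single pool of each condition, which leaves the spread between mice unknown, and it falls at late cycles. Alternatives were 5 other normalizations, other limits on Cp, a threshold of 1.5-fold, Spearman correlation, and each pair of pools left out. The Cp difference without a reference, and the means over pairs within the threshold, were added after seeing the data. Python 3.11.15, pandas 2.3.3, NumPy 2.4.6 and Matplotlib 3.10.9 were used, and the calculation was tested on simulated data with 200 set changes among 688 miRNAs. The genome build of the authors is not given in the sources used here. Coordinates and sequences are those of RefSeq for GRCm38.p6.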

Additional observations from a re-analysis of the deposited data

Results flagged for a closer look

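miR-132-3p differed in opposite directions under the same contrast in several pairs of pools. The log2 ratio of SCI over SHAM was 0.047 in PBS and -0.26 in CDTX muscles at D2, both small. At D4 it was -1.22 in PBS and 0.56 in CDTX muscles. Among PBS muscles the ratio of D4 over D2 was 0.23 with SHAM and -1.04 with SCI, and among SHAM muscles it was 0.23 with PBS and -1.26 with CDTX. None of these differences was tested, since each value comes from 1 pool per condition, and the 4 values of larger size involve PBS + SCI or CDTX + SHAM at D4, both beyond a Cp of 32.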

How the results depend on the processing

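The labels give no replicate numbers to pair pools by. Pools matched by condition were described as pairs, and no paired test was run. The mean of miR-132-3p over the 4 pairs ran from 0.98 to 1.58 for CDTX over PBS, from -0.48 to 0.12 for SCI over SHAM and from -0.91 to -0.41 for D4 over D2 when each pair was left out in turn. By normalization the CDTX mean ran from 0.89 (miR-24-3p alone) to 1.46 (miR-23b-3p alone), with 0.97 for the deposited values and 0.75 without a reference. Single log2 ratios that moved by more than 0.34, the assay error at a Cp of at most 32 (0.56 at 30 to 33), were, without a reference, 0.72 for CDTX over PBS in SHAM and 0.62 in SCI at D2, 0.96 for CDTX + SCI over CDTX + SHAM at D4 and -0.44 for PBS + SHAM at D4 over D2. With miR-24-3p alone CDTX over PBS was 0.93 in SCI at D2, -0.28 in SHAM at D4 and 1.47 in SCI at D4, with miR-23b-3p alone it was 1.69 in SCI at D2, and with miR-125b-5p alone CDTX + SHAM at D4 over D2 was -0.91. The cause of these shifts is the reference Cp by construction. miR-132-3p differed at least 2-fold in 6 of the 12 comparisons, and in 4 to 6 under the alternatives. A Cp threshold of 34 or 35 took in 2 or 4 pools for miR-212-3p and 1 or 3 for miR-132-5p. The share of miRNAs at least 2-fold higher with CDTX ran from 12.1% to 31.1% (SHAM, D2), 8.96% to 27.6% (SCI, D2), 18.2% to 34.4% (SHAM, D4) and 12.8% to 30.8% (SCI, D4), and the share lower from 9.09% to 43.2%, 6.72% to 38.8%, 20.8% to 30.3% and 16.5% to 31.1%. The correlation with miR-132-3p changed sign for miR-19b-3p (-0.82) and miR-223-3p (-0.66) within the PBS pools, and for miR-23a-3p with the deposited values (-0.030), in which miR-23a-3p is itself a reference.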
